A study of Mus musculus with 12 samples.

Results

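Gene expression of Cnp-Cre Jab1fl/fl p21CIP1-/- mice (double mutants) was compared with that of WT mice in O1+ CD45- oligodendrocytes sorted from the brain at postnatal day 40. The comparison used 8 of the 12 RNA-Seq samples of the study, the 4 labelled as double mutants (replicates 1, 2, 3 and 5) and the 4 labelled as WT (replicates 1, 3, 5 and 6). The other 4, from Cnp-Cre Jab1fl/fl mice that still carry p21CIP1, are set beside them where a value needs that context. The comparison asks how the transcripts of oligodendrocytes that lose JAB1 in the absence of p21CIP1 differ from those of control mice. Each sample held cells of 2 brains, and the mice were on a C57BL/6 background. Of 55376 gene symbols counted, the 17716 with at least 1 CPM (counts scaled to a common total per library) in at least 4 of the 12 samples were tested.

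In double mutants, Cre recombinase under control of Cnp, a gene of late progenitors and oligodendrocytes, deletes Jab1 (gene symbol Cops5) from these cells, whereas p21CIP1 (gene symbol Cdkn1a) is absent from the whole animal. The p21CIP1 allele was made in 129S6/SvEvTac cells and backcrossed. There was no group lacking p21CIP1 alone, so a difference from WT cannot be assigned to either deletion. The cells were gated as O1+ CD45- CD11b-, which selects differentiating and mature oligodendrocytes by a surface lipid and is meant to leave out leukocytes and microglia. On reanalysis, the authors found no overt CD45+ cells but incomplete purity of O1+ cells. They did not fully exclude a small contamination by other cells.

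JAB1 is the catalytic subunit of the COP9 signalosome, which removes NEDD8 from cullin ubiquitin ligases and so regulates protein turnover. p21CIP1 inhibits cyclin-dependent kinases and is a main effector of p53 in cell cycle arrest and senescence. Among the stress programs of oligodendrocytes, the integrated stress response slows translation through phosphorylation of eIF2α while the transcription factor ATF4 is still made, and ATF4 then raises genes for amino acid synthesis and stress adaptation. Interferons act through STAT proteins on a separate set of genes for antiviral defense and antigen presentation.

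Against this background, 31 genes (0.175% of those tested) were higher and 3 (0.0169%) were lower in double mutants than in WT at an adjusted p below 0.05 (edgeR's quasi-likelihood test with Benjamini-Hochberg adjustment), and these are referred to as called. Where a value in parentheses follows a gene or its levels without a name, it is the log2 fold change of double mutants over WT. For description, the called higher genes were sorted by known role, after the calls were seen, into 6 of stress response and amino acid synthesis, 6 interferon-induced, 10 of myeloid or lymphoid cells, and 9 others. All 34 (0.192%) had a fitted difference of at least 2.58 on the log2 scale, and the 2 groups did not overlap in CPM for any of them. Over all genes tested, the groups were apart for 801 higher (4.52%) and 634 lower (3.58%) genes, and an unadjusted p below 0.05 was reached by 1385 (7.82%) and 809 (4.57%). DESeq2 called 663 (3.74%) and 199 (1.12%) on the same samples.

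**Figure D1:**
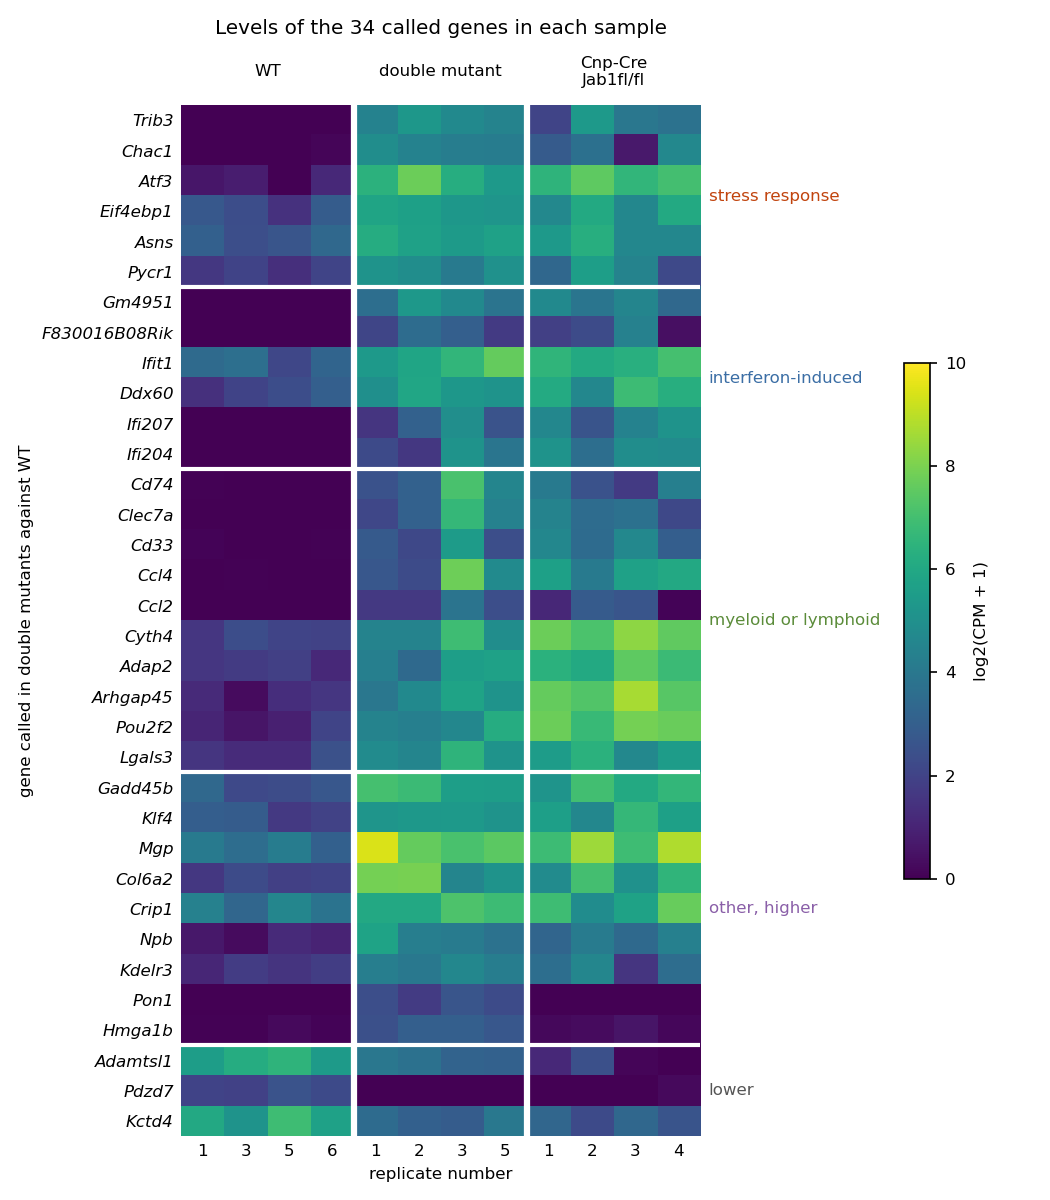
Levels of the 34 called genes as log2(CPM + 1) in each of 12 samples, with samples in columns by group and replicate number and genes in rows by group of function. The 4 WT samples are dark for the 31 higher genes, and the 4 double mutants are brighter, with Cd74, Clec7a, Cd33 and Ccl4 brightest in replicate 3.

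The sequences of promoters that carry motifs of these stress programs are shown first, because ATF4 targets and interferon-induced genes have well-known regulatory elements. RefSeq promoters (GRCm38.p6, 250 bases before to 50 after the start) were matched by symbol for 23 of the 34 called genes. The C/EBP-ATF response element, to which ATF4 binds, was searched as TGATGNAA on both strands. It was present in 5 of 22 higher genes with a promoter (22.7%), in 1 of 1 lower gene (Pdzd7, bases -106 to -99, window not shown) and in 2.8% of 11724 tested genes with a promoter. Over all 27025 genes with a promoter, tested or not, the share was 4.51%. The motif is in capitals in the following windows, written 5′ to 3′ on the strand of the gene, with positions counted from the RefSeq start. By GENCODE M21, 30 bases of the Asns window, 21 of Pycr1, 7 of Atf3, 4 of Trib3 and 0 of Chac1 lie in a first or alternative exon of the gene, and the others lie outside exons.
Asns, chr6:7693225-7693329 (- strand, bases -120 to -16): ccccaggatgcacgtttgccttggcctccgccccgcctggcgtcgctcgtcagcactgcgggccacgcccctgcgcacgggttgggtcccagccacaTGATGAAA
Pycr1, chr11:120643749-120643868 (- strand, bases -120 to -1): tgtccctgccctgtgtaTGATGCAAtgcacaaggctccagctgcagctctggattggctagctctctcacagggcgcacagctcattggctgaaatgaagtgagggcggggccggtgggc
Atf3, chr1:191183334-191183453 (- strand, bases -120 to -1): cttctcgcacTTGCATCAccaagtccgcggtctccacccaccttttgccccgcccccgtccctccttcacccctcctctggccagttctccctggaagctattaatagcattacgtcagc
Chac1, chr2:119351022-119351141 (+ strand, bases -220 to -101): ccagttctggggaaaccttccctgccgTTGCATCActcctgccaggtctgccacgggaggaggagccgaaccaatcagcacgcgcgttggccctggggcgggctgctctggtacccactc
Trib3, chr2:152344029-152344056 (- strand, bases 5 to 32 after the start): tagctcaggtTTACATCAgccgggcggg

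The 5 genes differ in where the motif lies. Counted from the RefSeq start, it begins 23 bases before the start in Asns, 103 in Pycr1, 110 in Atf3 and 193 in Chac1, and at base 15 after the start in Trib3. By the GENCODE M21 positions of the genes, the motif instead lies within Asns and before the start of Trib3. It reads forward (TGATGAAA and TGATGCAA) in Asns and Pycr1 and on the opposite strand in the other 3 genes. Among the 17 measured ATF4 targets with a promoter, 6 (35.3%) held it.

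The interferon-stimulated response element, a site of interferon-activated transcription factors, was searched as GAAA, any 2 bases and a second GAAA, on both strands. It was present in 3 of 22 higher genes (13.6%), in 0 of 1 lower gene, in 3.74% of tested genes with a promoter and in 3.99% of all genes with a promoter. Ifit1 and Ddx60 each hold 2 copies, and Ifi207 holds 1, in capitals. No copy overlapped a copy of the first motif, and 18 bases of the Ifit1 window lie in an exon.
Ifit1, chr19:34640769-34640888 (+ strand, bases -120 to -1): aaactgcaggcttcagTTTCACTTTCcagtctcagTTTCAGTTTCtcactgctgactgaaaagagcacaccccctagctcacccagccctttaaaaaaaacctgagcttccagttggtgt
Ddx60, chr8:61928029-61928086 (+ strand, bases -58 to -1): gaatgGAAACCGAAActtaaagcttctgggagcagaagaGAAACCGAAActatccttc
Ifi207, chr1:173741810-173741929 (- strand, bases -120 to -1): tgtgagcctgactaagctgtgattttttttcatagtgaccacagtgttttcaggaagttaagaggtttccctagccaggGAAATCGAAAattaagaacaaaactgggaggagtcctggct

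Of larger lists of interferon genes, the element was present in 10 of 19 interferon-stimulated genes with a promoter (52.6%), in 10 of 11 interferon-induced GTPase genes (90.9%) and in 3 of 14 genes of MHC class I antigen presentation (21.4%). A match describes letters in a window, and binding at these sites was not measured here.

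The 8 libraries held 90757237 to 153495112 counts, so that 1 CPM stood for at least 90.8 counts. On the first principal component of the 8 samples (40.5% of the variance), double-mutant replicates 3 and 5 lay at 114 and 97.7, replicates 1 and 2 at -13.2 and -4.25, and WT between -63.4 and -30.6. Double-mutant replicates 3 and 5 thus stood apart from the other 6 libraries, and they were also the libraries with the highest summed markers of microglia and endothelial cells. The share of counts from mitochondrial genes was 1.46% to 3.41% in WT and 2.5% to 5.08% in double mutants.

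Of the targeted genes, Cops5 (chr1:10024601-10038168) was at 134, 46.5, 128 and 105 CPM in WT replicates 1, 3, 5 and 6 and at 47.5, 44.4, 90.7 and 52.5 CPM in double-mutant replicates 1, 2, 3 and 5. The groups overlapped, because WT replicate 3 lay within the range of double mutants, and double-mutant replicates 1, 3 and 5 within that of WT. The difference did not pass the test (log2 fold change -0.82, SE 0.39, edgeR adjusted p = 0.424). Counts of the whole gene also hold reads of exons outside the deleted part, and Cops5 overlaps Cspp1 on the other strand.

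Cdkn1a (chr17:29090976-29100727) was not lower in the libraries labelled as p21CIP1-/-. It was at 85.6, 43.5, 16.03 and 21.8 CPM in WT and at 84.8, 104, 102 and 64.9 CPM in double mutants, which overlapped (log2 fold change 1.08, SE 0.48, edgeR adjusted p = 0.394). In Cnp-Cre Jab1fl/fl samples with an intact gene it was at 380.1, 398, 397 and 639 CPM, above all 8 of those libraries, yet the difference of double mutants from these samples was not called (-2.35, adjusted p = 0.0916). Cdkn1a overlaps AC167363.2 on the other strand. A count over the whole gene does not tell transcripts with the deleted part from those without it, so neither gene checks the labels here.

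The 6 called genes of stress response and amino acid synthesis were 4 members of the list of ATF4 targets and 2 of the list of serine, one-carbon and proline synthesis. For 4 of the 6, the highest double mutant was less than 2-fold above the lowest. Trib3 (chr2:152337422-152344032), a pseudokinase made under ATF4 and CHOP, had 0 counts in all 4 WT libraries and was at 20.7, 38.3, 26.0 and 21.4 CPM in double-mutant replicates 1, 2, 3 and 5. It was higher in all 4 double mutants, at least 976-fold over a floor of 3 counts per WT library, and had the smallest adjusted p of all genes (0.00429, edgeR). It was called when any of the 8 libraries was left out. Of the other 5 genes, Asns was called in 3 of these 8 fits, Chac1, Atf3 and Pycr1 in 2 and Eif4ebp1 in 1, and all 6 were called only without double-mutant replicate 1. Without any 1 WT library, 1 or 2 of the 6 were called.

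Chac1 (chr2:119351229-119354381), which degrades glutathione, had 10 counts in WT, all in replicate 6, and was at 29.2, 20.8, 17.8 and 17.5 CPM in double mutants (adjusted p = 0.0404). Atf3 (chr1:191170296-191218039), a stress-induced transcription factor of the ATF family, was at 0.536, 0.719, 0 and 1.196 CPM in WT and at 84.3, 217, 74.7 and 40.4 CPM in double mutants (log2 fold change 7.39, SE 1.14, adjusted p = 0.0404). Every double mutant was above every WT sample for both genes, with Atf3 highest in replicate 2. Eif4ebp1 (chr8:27260329-27276674) encodes 4E-BP1, an inhibitor of cap-dependent translation. It was at 5.72, 4.19, 1.67 and 6.47 CPM in WT and at 55.7, 50.6, 38.7 and 36.6 CPM in double mutants (log2 fold change 3.32, SE 0.46, adjusted p = 0.0404). The lowest double mutant was above the highest WT sample.

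A pair of enzymes of amino acid synthesis rose in the same way. Asns (chr6:7675169-7693254), which makes asparagine, was at 7.32, 4.34, 5.24 and 9.33 CPM in WT and at 72.4, 51.6, 42.4 and 52.3 CPM in double mutants (log2 fold change 3.05, SE 0.36, adjusted p = 0.0275). Pycr1 (chr11:120635712-120643769), which makes proline in mitochondria, was at 2.11, 3.08, 1.53 and 3.15 CPM in WT and at 34.4, 29.0, 16.5 and 32.3 CPM in double mutants (3.49, SE 0.45, adjusted p = 0.0365). The lowest double mutant exceeded the highest WT sample for both.

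As a list, 4 of 19 measured ATF4 targets were called (Trib3, Chac1, Atf3 and Eif4ebp1), 11 (57.9%) had an unadjusted p below 0.05 and a higher level, and 0 had a lower one, against 7.82% and 4.57% of all genes. The median difference of the list was 1.64 on the log2 scale, against 0.00 for all genes tested, with 14 members above 0 and 5 below. Mean log2(CPM + 1) over the list was 3.68, 3.69, 3.53 and 3.62 in WT and 5.64, 5.74, 4.99 and 4.51 in double mutants, so the groups were apart, and replicate 5 had the lowest level of the double mutants.

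Further members were looked up after their values were seen. Atf4 itself, which is controlled largely by translation, was at 127, 62.5, 103 and 80.9 CPM in WT and at 204, 214, 116 and 86.0 CPM in double mutants, which overlapped (log2 fold change 0.72, SE 0.37, edgeR adjusted p = 0.461). Ddit3, which encodes the proapoptotic factor CHOP, was at a mean of 45.9 ± 14.8 (SD, n = 4) CPM in WT and 284 ± 183 in double mutants (edgeR adjusted p = 0.0736). Nupr1, a stress-induced transcriptional regulator, and Ppp1r15a, the phosphatase subunit that reverses eIF2α phosphorylation, had differences of 2.16 and 2.30 (adjusted p = 0.0874 and 0.0886). These 4 genes did not pass the test.

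Neighboring pathways had few called members. Of 23 genes of serine, one-carbon and proline synthesis, Asns and Pycr1 were called, 4 (17.4%) were higher and 2 (8.7%) lower at an unadjusted p below 0.05, and the median difference was 0.05 (DESeq2 called 5), which ranged from -0.08 to 0.16 with 1 library left out. The next members by p were Aldh18a1, an earlier enzyme of proline synthesis (1.46, adjusted p = 0.179), and Mthfd1l, of mitochondrial folate metabolism (1.57, adjusted p = 0.2). Both were above every WT sample in every double mutant without passing the test. Of 16 amino acid transporters 0 were called, 4 were higher and 0 lower at an unadjusted p below 0.05, and the median difference was -0.26 (DESeq2 called 2), which ranged from -0.36 to 0.01. The smallest p values were those of the cationic transporter Slc7a1 (2.40, adjusted p = 0.161) and the glutamine transporter Slc38a1 (1.48, adjusted p = 0.211).

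Of 20 cytosolic tRNA synthetases 0 were called and 1, Rars, had an unadjusted p below 0.05 (0.81, adjusted p = 0.221), with a median of 0.37. Of 21 genes of the unfolded protein response and ER chaperones 0 were called and 1, the ER cochaperone Sdf2l1, had an unadjusted p below 0.05 (1.46, adjusted p = 0.168). The ER chaperone Hspa5 (BiP) was at 611, 480.2, 549 and 437 CPM in WT and at 618, 845, 1257 and 638 CPM in double mutants, apart by a narrow margin (0.68, adjusted p = 0.429). Hspa5 was highest in replicate 3. DESeq2 called 0 of the tRNA synthetases and 1 gene of the unfolded protein response, whose median was 0.44 and 0.10 without double-mutant replicate 3. Of 15 genes for eIF2 and its kinases 0 were called, with 1 higher and 1 lower at an unadjusted p below 0.05, a median of -0.01 and 0 called by DESeq2.

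Called genes known to be induced by interferon were Ifit1, of 30 listed interferon-stimulated genes, Gm4951 and F830016B08Rik, of 19 listed interferon-induced GTPases, and Ddx60, Ifi207 and Ifi204, which were on no list and were placed here after they were called. Without double-mutant replicate 1 all 6 were called, and without any of the other 7 libraries 0 to 2. Gm4951 and F830016B08Rik, which encode GTPases of the immunity-related family and lie on chromosome 18, were nearly silent in WT. Gm4951 had 4 counts in all WT libraries and was at 11.3, 39.0, 25.8 and 13.3 CPM in double mutants (log2 fold change 11.08, SE 1.10, adjusted p = 0.00759), the second smallest adjusted p of all genes. F830016B08Rik had 1 count in WT, was at 3.26, 10.5, 7.20 and 2.28 CPM in double mutants (adjusted p = 0.0376) and gave a ratio of 2835 (509 to 111974), an exact 95% interval for counting error only.

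Ifit1 (chr19:34640871-34650009), which binds foreign RNA caps, was at 9.93, 11.5, 3.32 and 8.46 CPM in WT and at 40.9, 57.3, 94.7 and 200.2 CPM in double mutants (3.56, SE 0.58, adjusted p = 0.0437). Ddx60 (chr8:61928087-62038244), a helicase that assists RNA sensing, was at 1.59, 3.01, 4.10 and 7.24 CPM in WT and at 30.3, 59.7, 38.7 and 34.02 CPM in double mutants (3.34, SE 0.51, adjusted p = 0.0404). The groups did not overlap for either gene, with Ifit1 highest in double-mutant replicate 5 and Ddx60 in replicate 2. Ifi207 (chr1:173723427-173741747) and Ifi204 (chr1:173747293-173766943), of the p200 family of DNA-binding interferon-inducible proteins, had 0 counts in WT. Ifi207 was at 1.90, 7.53, 29.7 and 4.96 CPM in double mutants (at least 404-fold higher, adjusted p = 0.0404) and Ifi204 at 3.78, 2.07, 33.9 and 13.6 CPM (at least 489-fold higher, adjusted p = 0.0404), both highest in replicate 3.

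In the wider interferon lists, most members lay above WT and few passed the test. Of 30 interferon-stimulated genes 1, Ifit1, was called, 24 (80%) were higher and 0 lower at an unadjusted p below 0.05, 19 (63.3%) had groups that did not overlap, and the median difference was 2.92. Mean log2(CPM + 1) over the list was 2.80, 3.13, 2.55 and 2.83 in WT and 3.77, 4.90, 5.80 and 5.73 in double mutants, so the double mutants differed more among themselves than the WT samples did, and replicate 1 was nearest to WT. Members just outside the threshold were Usp18, which restrains interferon signaling (3.91, adjusted p = 0.051) and Bst2, which tethers budding virus (3.83, adjusted p = 0.0618). DESeq2 on the same 8 samples called 22 of the 30, and edgeR called 17 when double-mutant replicate 1 was left out and 0 when any of the other 7 libraries was.

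Of 19 interferon-induced GTPases 2 were called, Gm4951 and F830016B08Rik, and 15 (78.9%) were higher and 0 lower at an unadjusted p below 0.05, with a median of 2.83 (DESeq2 called 11). Igtp and Gbp3, of the immunity-related and guanylate-binding families, had differences of 2.81 and 2.83 (adjusted p = 0.0874 and 0.0874). Of 16 genes of MHC class I antigen presentation 0 were called by edgeR and 12 by DESeq2, and 13 (81.2%) were higher and 0 lower at an unadjusted p below 0.05, with a median of 2.59. The class I heavy chain gene H2-D1 was at 111, 159, 109 and 122 CPM in WT and at 308, 466, 2175 and 1243 CPM in double mutants, apart in every sample (3.06, SE 0.59, adjusted p = 0.0803). Its light chain B2m and the immunoproteasome subunits Psmb8 and Psmb10 had differences of 3.57, 4.20 and 1.84 (adjusted p = 0.0988, 0.0941 and 0.126). Double-mutant replicates 3 and 5 were the highest samples for all 4 of these genes. They also had the highest sums of microglia and endothelial markers, whose part in the interferon and MHC values was not tested.

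A further 10 called genes are known from myeloid or lymphoid cells, which the gate is meant to leave out. Their levels are set beside the markers of microglia, of which 20 of 20 were tested. The summed level of these markers was 219, 148, 362 and 284 CPM in WT replicates 1, 3, 5 and 6 and 522, 1102, 22893 and 2575 CPM in double-mutant replicates 1, 2, 3 and 5, so that replicate 3 held most of it. All 20 had reads in both groups, although Ptprc had none in WT replicate 3 and P2ry13 none in double-mutant replicate 2. Of the 20 markers 0 were called by edgeR and 13 by DESeq2 (12 by edgeR without double-mutant replicate 1), 19 (95%) were higher and 0 lower at an unadjusted p below 0.05, and the median difference was 4.67. In Cnp-Cre Jab1fl/fl samples the sum was 3330.1, 1355, 2301 and 3412 CPM. In bulk samples, more cells of a type and more RNA per cell cannot be told apart.

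Among these markers, the complement gene C1qb was at 17.9, 4.90, 35.6 and 29.6 CPM in WT and 66.6, 214, 4012 and 484 CPM in double mutants (adjusted p = 0.102). C1qb in replicate 1 was the lowest of the double mutants but above WT. The genes of the gate itself, looked up after their values were seen, were Ptprc (CD45), at 0.109, 0, 0.179 and 1.53 CPM in WT and 4.46, 3.12, 101 and 10.9 CPM in double mutants, and Itgam (CD11b), at 1.87, 0.544, 1.42 and 2.01 CPM in WT and 4.56, 3.92, 55.0 and 13.4 CPM in double mutants. Neither passed the test (adjusted p = 0.194 and 0.141), and both were highest in replicate 3.

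**Figure D2:**
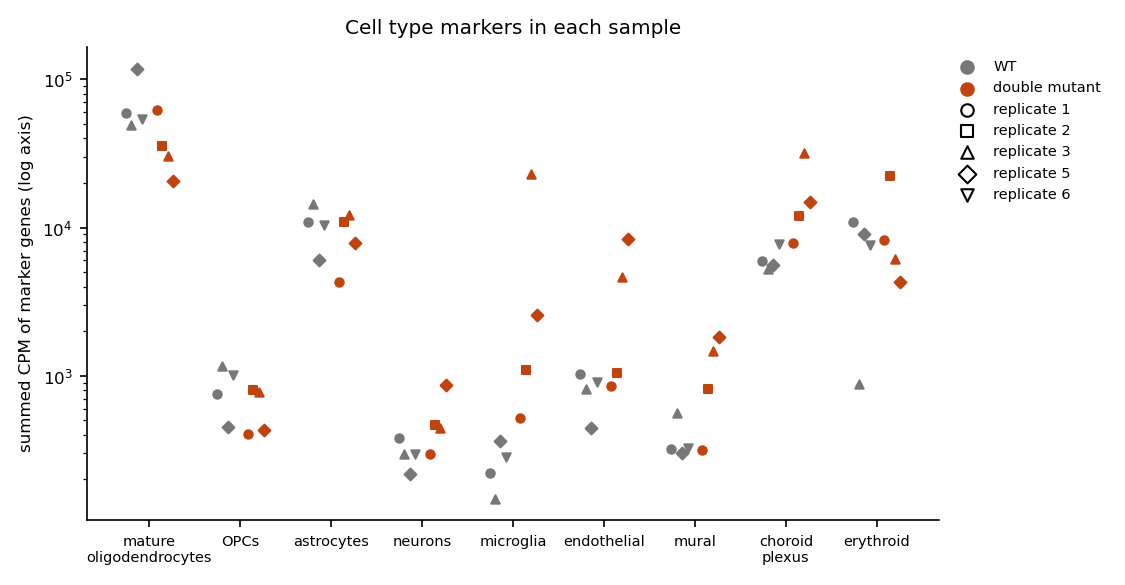
Summed CPM of marker genes of 9 cell types (log axis) in the 4 WT samples (gray) and the 4 double mutants (orange), with 1 symbol for each replicate number, to be compared within a cell type only. Microglia markers lie between 148 and 362 CPM in WT and reach 22893 CPM in double-mutant replicate 3, and endothelial markers stand out in replicates 3 and 5.

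Of the 10 genes, Cd74, on chromosome 18, encodes the invariant chain of MHC class II. It had 6 counts in WT and was at 4.70, 7.72, 138 and 22.7 CPM in double mutants (adjusted p = 0.0404). Clec7a (Dectin-1, chr6:129461591-129472779) had 0 counts in WT and was at 3.41, 7.52, 99.1 and 19.9 CPM (at least 1191-fold higher, adjusted p = 0.0437). Cd33 (chr7:43524216-43544428), a sialic acid receptor, was at 0.0727, 0.0259, 0 and 0.0435 CPM in WT and at 6.08, 3.53, 44.3 and 4.23 CPM in double mutants (adjusted p = 0.0437). All 3 were highest in replicate 3, by 29.3-fold, 29.1-fold and 12.6-fold over the lowest double mutant.

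A pair of chemokine genes was also highest in replicate 3. Ccl4 (chr11:83662584-83664683) had 6 counts in WT and was at 5.53, 3.901, 224 and 26.6 CPM in double mutants (adjusted p = 0.0404), a 57.3-fold range. Ccl2 (chr11:82035571-82037453), which attracts monocytes and overlaps Gm17268 on the other strand, had 0 counts in WT and was at 2.19, 2.17, 13.5 and 4.25 CPM (at least 203-fold higher, adjusted p = 0.0437). Every double mutant had reads of both, and replicate 3 was the highest.

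Cyth4 (chr15:78597047-78622019), an exchange factor for ARF GTPases in hematopoietic cells, was at 1.9999, 4.08, 3.17 and 2.98 CPM in WT and at 21.5, 20.9, 118 and 28.9 CPM in double mutants (3.95, SE 0.65, adjusted p = 0.0457). Adap2 (chr11:80154105-80178958, overlapping Adap2os) was at 1.9999, 2.32, 2.73 and 1.23 CPM in WT and 18.7, 9.66, 48.2 and 51.2 CPM in double mutants (3.94, adjusted p = 0.0404). Arhgap45 (chr10:80016653-80031472), a GTPase-activating protein, was at 1.31, 0.233, 1.49 and 1.98 CPM in WT and 14.6, 25.8, 55.1 and 34.5 CPM in double mutants (4.69, adjusted p = 0.0404). These 3 were apart from WT in every double mutant, with narrower ranges than the surface receptors. Pou2f2 (chr7:25087344-25179726), the transcription factor OCT2 of lymphoid cells, was at 1.03, 0.493, 0.863 and 3.17 CPM in WT and 21.3, 19.1, 23.6 and 73.0 CPM in double mutants (4.61, adjusted p = 0.0437) and stood out in replicate 5. Lgals3 (chr14:47367751-47386160), the galectin-3 gene of activated phagocytes, was at 1.92, 1.32, 1.33 and 4.61 CPM in WT and 27.1, 22.7, 89.6 and 34.6 CPM in double mutants (4.24, adjusted p = 0.0404).

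Of these 10 genes, 8 were highest in replicate 3, the library with the highest sum of microglia markers. All 10 were called without double-mutant replicate 1, and 0 of the 10 without any 1 of the other 7 libraries, WT samples included, although each kept its direction. Without replicate 3, Cd74, Clec7a, Ccl4 and Cyth4 had adjusted p = 0.0606, and Cd33 had 0.0913 (edgeR). Of 10 markers of border macrophages, 6 were tested, with 0 called by edgeR, 1 by DESeq2 and 1 higher and 0 lower at an unadjusted p below 0.05. Few markers of other leukocytes reached the level for testing, 4 of 12 for T cells and 1 of 12 for neutrophils and monocytes. The part of other cells in the difference was not tested.

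The called genes spread to different degrees among the 4 double mutants. Over the 6 stress response genes, the ratio of the highest to the lowest double mutant had a median of 1.78 and was below 2 for 4 of them, 1.52 for Eif4ebp1, 1.67 for Chac1, 1.71 for Asns and 1.85 for Trib3. Over the 6 interferon-induced genes the median was 4.76, and over the 10 myeloid or lymphoid genes 5.95. The median was 3.95 over all 31 higher genes and 3.03 over all genes tested with a ratio. These ratios describe the called genes and were not tested against each other. The calls themselves depend in part on this spread, so the ratios cannot show that the groups of genes differ in it.

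**Figure D3:**
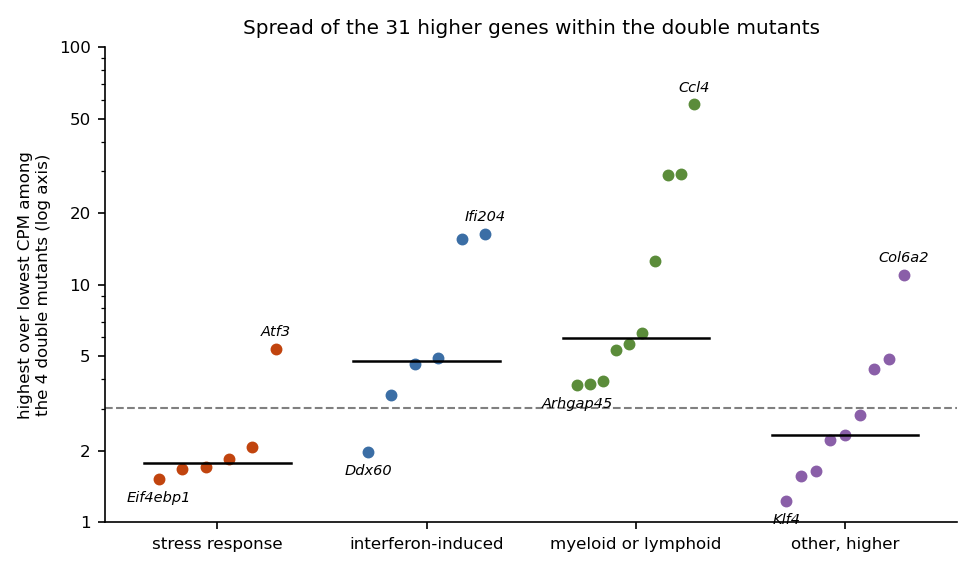
Ratio of the highest to the lowest CPM among the 4 double mutants (log axis) for each of the 31 higher genes by group of function, with the median of each group as a black line and the median of all genes tested, 3.03, as a dashed line. Stress response genes lie low, from 1.52 for Eif4ebp1 to 5.37 for Atf3, and myeloid or lymphoid genes reach 57.3 for Ccl4.

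The remaining 9 higher genes have mixed roles. Gadd45b (chr10:80930073-80932204), a sensor of stress and cytokines that activates MAP kinases, was at 9.47, 3.62, 3.99 and 5.58 CPM in WT and at 130.5, 113, 47.1 and 46.0 CPM in double mutants (3.88, SE 0.50, adjusted p = 0.0365). Klf4 (chr4:55527143-55532466), a transcription factor of growth arrest, was at 7.02, 6.62, 2.17 and 2.97 CPM in WT and 36.1, 39.5, 41.4 and 33.8 CPM in double mutants (2.99, SE 0.45, adjusted p = 0.0404). Klf4 had the most even level of the 31 genes, within 1.23-fold across the double mutants, whereas Gadd45b was higher in replicates 1 and 2 than in 3 and 5.

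Mgp and Col6a2 were also highest in replicates 1 and 2. Mgp (chr6:136872435-136875823), matrix Gla protein, was at 15.9, 10.8, 17.6 and 7.30 CPM in WT and at 682, 198, 139.7 and 178 CPM in double mutants (4.52, SE 0.59, adjusted p = 0.0365). Col6a2 (chr10:76595762-76623630), a chain of collagen VI, was at 2.11, 3.895, 2.67 and 3.01 CPM in WT and 239, 245, 22.2 and 34.6 CPM in double mutants (5.51, SE 0.82, adjusted p = 0.0404). Its level in replicates 1 and 2 was far above that in replicates 3 and 5. By contrast, 5 of the 9 genes of this group and 8 of the 10 myeloid or lymphoid genes were highest in replicate 3. Npb (chr11:120608477-120609093), the precursor of neuropeptide B, was at 0.545, 0.214, 1.30 and 0.989 CPM in WT and 55.4, 18.4, 16.9 and 12.5 CPM in double mutants (5.06, adjusted p = 0.0404), highest in replicate 1.

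Kdelr3 (chr15:79516411-79527739), a receptor that returns proteins to the ER, was at 1.11, 2.41, 1.81 and 2.55 CPM in WT and at 18.3, 15.2, 23.8 and 17.7 CPM in double mutants (3.24, SE 0.48, adjusted p = 0.0404). Crip1 (chr12:113146316-113153879), a LIM domain protein, was at 20.1, 8.94, 22.9 and 13.2 CPM in WT and 63.9, 65.1, 148 and 114 CPM in double mutants (2.58, SE 0.42, adjusted p = 0.0437). Both were apart from WT in every sample, and Kdelr3 overlaps Ddx17 on the other strand.

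Pon1 and Hmga1b were low but found in every double mutant. Pon1 (chr6:5168090-5193946), a paraoxonase best known from liver and plasma, had 1 count in WT, was at 4.30, 2.32, 5.14 and 3.83 CPM in double mutants (adjusted p = 0.0404) and gave a ratio of 1737 (312 to 68614) for counting error only. Hmga1b (chr11:120762794-120764419) was at 0.0455, 0.0454, 0.188 and 0.0652 CPM in WT and at 4.38, 7.11, 7.24 and 5.56 CPM in double mutants (6.11, SE 0.92, adjusted p = 0.0404). Hmga1b is a near copy of Hmga1, so its reads cannot be assigned with certainty.

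The 3 lower genes were Adamtsl1, Kctd4 and Pdzd7. Adamtsl1 (chr4:85514172-86428385), a secreted matrix protein related to ADAMTS proteases, was at 46.2, 72.9, 88.8 and 42.1 CPM in WT and fell to 14.6, 12.3, 8.01 and 7.53 CPM in double mutants (-2.58, SE 0.37, adjusted p = 0.0404). Kctd4 (chr14:75955009-75966206), of the KCTD family and overlapping Gtf2f2, was at 64.2, 33.8, 119 and 52.4 CPM in WT and 10.3, 7.39, 6.52 and 14.9 CPM in double mutants (-2.80, SE 0.45, adjusted p = 0.0437). Pdzd7 (chr19:45026906-45045717), a scaffold protein studied in the inner ear that overlaps Lzts2, was at 2.9999, 2.85, 4.94 and 3.72 CPM in WT and had 0 counts in all 4 double mutants (at least 124-fold lower, adjusted p = 0.0404). The groups did not overlap for any of the 3.

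Myelin genes lay below WT without any being called by edgeR. Of 25 genes of myelin structure 0 were called, 13 (52%) were lower and 0 higher at an unadjusted p below 0.05, 6 (24%) had groups that did not overlap, and the median difference was -1.22, against 3.58% of all genes lower without overlap. Cnp, the gene whose promoter drives Cre, was at 5248, 6752, 13335 and 4848 CPM in WT and at 2579, 1347, 1265 and 848 CPM in double mutants (-2.34, SE 0.48, adjusted p = 0.0878). The part of the Cre allele in the difference of Cnp was not tested. Opalin, a membrane protein of mature oligodendrocytes, was at 1209, 428, 1917 and 1043 CPM in WT and 408, 106, 97.3 and 88.3 CPM in double mutants (-2.74, adjusted p = 0.11). Both were below WT in every double mutant and highest there in replicate 1. Omg and Tmem88b, of oligodendrocyte membranes, had differences of -1.81 and -1.76 (adjusted p = 0.102 and 0.156).

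Mbp, myelin basic protein, was at 10004, 7259, 17333 and 8697 CPM in WT and 16409, 13752, 12938 and 7471 CPM in double mutants and overlapped (0.21, SE 0.41, adjusted p = 0.878). It was abundant in all 8 samples, which were labelled as oligodendrocytes. The markers of mature oligodendrocytes summed to 59753, 49542, 118442 and 53678 CPM in WT and 62154, 35395, 30532 and 20465 CPM in double mutants, with replicate 5 lowest. DESeq2 called 9 of the 25 myelin genes, and edgeR called 7 without double-mutant replicate 1.

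Genes that act on myelin formation also lay below WT on the median. Of 15 oligodendrocyte transcription factors 0 were called, 6 (40%) were lower and 0 higher at an unadjusted p below 0.05, and the median difference was -0.99 (DESeq2 called 2), or -0.61 without WT replicate 3. The smallest p values were those of Sox8 (-1.48, adjusted p = 0.131), Zfp488 (-1.82, adjusted p = 0.225), Carhsp1, a cold shock domain protein that binds RNA (-1.09, adjusted p = 0.275), and Olig1 (-1.18, adjusted p = 0.279). Sox8, Zfp488 and Carhsp1 did not overlap between groups, and Olig1 in replicate 1 lay within the WT range.

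Of 15 genes of galactolipid synthesis and turnover, which supplies the lipids recognized by O1, 0 were called, 5 (33.3%) were lower and 0 higher at an unadjusted p below 0.05, and the median was -0.46 (DESeq2 called 2), or -0.86 and -0.73 without double-mutant replicates 1 and 3. These included Ugt8a, which makes galactosylceramide (-1.62, adjusted p = 0.197), the ceramide synthase Cers2 (-1.30, adjusted p = 0.225), the hydrolase Galc (-1.28, adjusted p = 0.279) and the fatty acid hydroxylase Fa2h (-1.70, adjusted p = 0.327). Of 24 genes of sterol synthesis 0 were called, 11 (45.8%) were lower and 0 higher at an unadjusted p below 0.05, and 7 (29.2%) did not overlap, with a median of -0.67 (DESeq2 called 1). Hmgcs1, of the first steps of the pathway, was at 181, 282, 267 and 214 CPM in WT and at 123, 110.5, 96.5 and 88.2 CPM in double mutants (-1.19, SE 0.27, adjusted p = 0.11). Nsdhl, Idi1 and Mvd had differences of -0.84, -1.10 and -0.77 (adjusted p = 0.216, 0.23 and 0.24), and the groups did not overlap for any of these 4 enzymes.

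**Figure D4:**
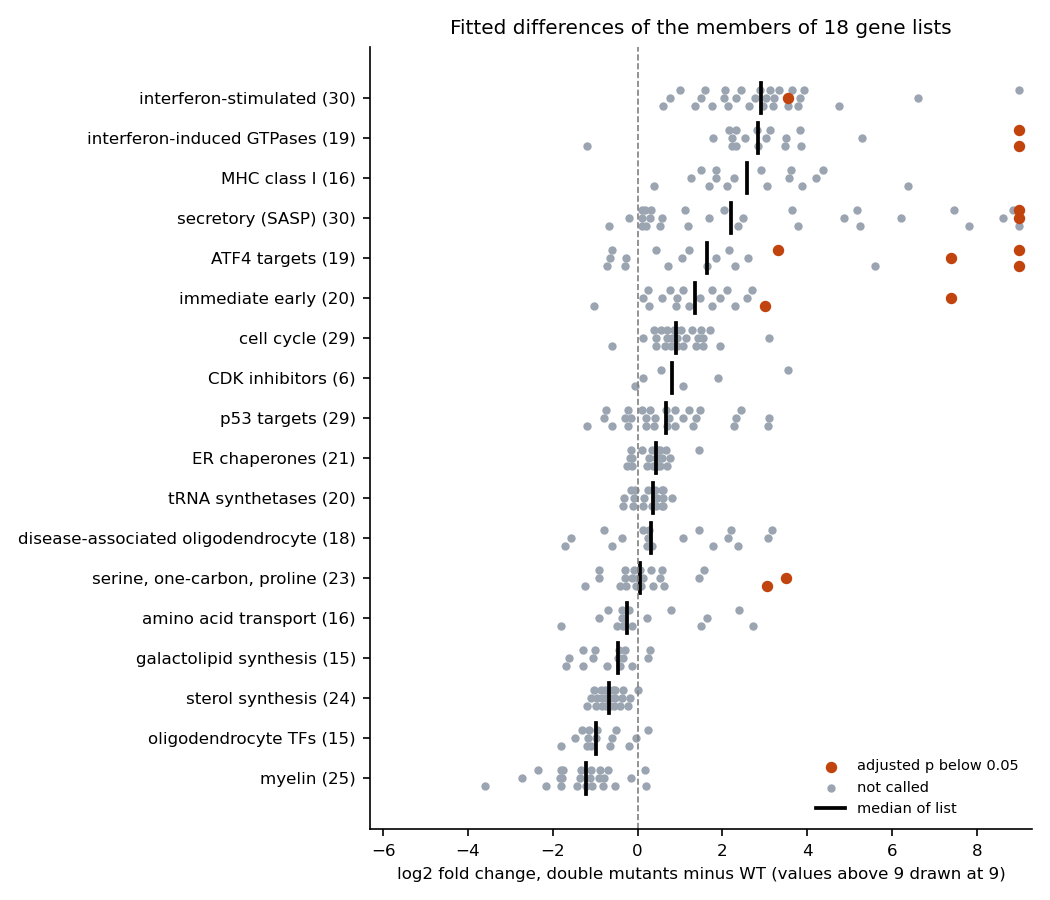
Fitted log2 fold change of double mutants minus WT for the members of 18 gene lists, with the number tested in parentheses, called genes in orange, the others in gray and the median of each list as a black bar. Interferon lists and MHC class I have medians between 2.59 and 2.92 with few called members, and the lists of myelin, oligodendrocyte transcription factors, sterols and galactolipids have medians below 0 with 0 called.

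The lists on p53, arrest and senescence bear on the deleted gene. Of 29 p53 targets other than Cdkn1a 0 were called, 4 (13.8%) were higher and 1 (3.45%) lower at an unadjusted p below 0.05, and the median was 0.67 (DESeq2 called 1). The smallest p values were those of the proapoptotic Bbc3 (2.28, adjusted p = 0.226), the antiproliferative Btg2 (1.22, adjusted p = 0.245), the desmosomal Perp (3.09, adjusted p = 0.332) and the RNA-binding Zmat3 (-1.21, adjusted p = 0.337). Zmat3 was the 1 member of these that lay below WT.

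Of 6 measured CDK inhibitors, Cdkn1a itself included, 0 were called by edgeR and 2 by DESeq2, and 3 (Cdkn1a, Cdkn1c and Cdkn2b) were higher and 0 lower at an unadjusted p below 0.05. Cdkn1c (p57), an inhibitor related to p21CIP1, was at 9.67, 12.3, 13.7 and 11.3 CPM in WT and at 21.02, 41.1, 60.3 and 54.3 CPM in double mutants, with no overlap (1.91, SE 0.38, adjusted p = 0.0873). Cdkn2b (p15) was at 3.25, 2.20, 0.417 and 1.67 CPM in WT and 3.09, 6.36, 16.5 and 62.4 CPM in double mutants, overlapping in replicate 1 (3.54, adjusted p = 0.184). Of 29 cell cycle genes 0 were called and 28 had a fitted difference above 0, with 6 (20.7%) higher at an unadjusted p below 0.05 and a median of 0.91 (DESeq2 called 0), or 0.49 without double-mutant replicate 5. The proliferation marker Mki67 was at 14.1, 5.78, 2.51 and 5.78 CPM in WT and 9.37, 18.3, 24.8 and 23.6 CPM in double mutants, with overlap (1.42, adjusted p = 0.335).

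Of 30 measured genes of the senescence-associated secretory phenotype, 2 were called, the chemokines Ccl2 and Ccl4, 13 (43.3%) were higher and 0 lower at an unadjusted p below 0.05, and the median was 2.20 (DESeq2 called 8). Without double-mutant replicate 3 the median was 0.78 and without any 1 library other than double-mutant replicate 1, where 5 were called, 0 were. The next members by p were the protease inhibitor Timp1 (0.00410 CPM in WT and 2.13 CPM in double mutants, adjusted p = 0.0736) and the chemokine Cxcl10 (0.104 and 19.4 CPM, adjusted p = 0.128).

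Of 20 immediate early genes 2 were called, Atf3 and Klf4, and 12 (60%) were higher and 0 lower at an unadjusted p below 0.05, with a median of 1.35. Ier2 and Junb, which are induced within minutes of a stimulus or of cell handling, had differences of 2.29 and 2.59 (adjusted p = 0.0803 and 0.0925). Of 18 genes reported in disease-associated oligodendrocytes 0 were called, 7 (38.9%) were higher and 1 (5.56%) lower at an unadjusted p below 0.05, with a median of 0.31 (DESeq2 called 7). This median was 0.63, 0.17 and 0.56 without WT replicates 1, 3 and 5 and 0.51 without double-mutant replicate 3. Klk6, a protease of mature oligodendrocytes, was at 96.1, 33.3, 127 and 125 CPM in WT and at 629.6, 486, 294 and 356 CPM in double mutants (2.19, SE 0.45, adjusted p = 0.0874). Tnfrsf12a, Serpina3n and Socs3 had differences of 3.16, 2.14 and 3.07 (adjusted p = 0.0707, 0.0844 and 0.0874), with no overlap between groups for these 4 genes.

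No gene of the machinery around JAB1 passed the test. Of 10 genes of the COP9 signalosome 0 were called by edgeR or DESeq2 and 0 had an unadjusted p below 0.05, with a median of 0.07. Of 21 cullins and neddylation genes 0 were called by either tool and 0 had an unadjusted p below 0.05, with a median of -0.15. There were also 0 edgeR calls among 23 NRF2 targets, 18 heat shock genes, 24 genes of DNA damage and repair, 10 of mitochondrial stress and 13 encoded by mitochondria. At an unadjusted p below 0.05, 3, 2, 2, 0 and 0 of these were higher and 0, 0, 1, 0 and 0 lower, and DESeq2 called 0, 1, 2, 0 and 0. Their medians were 0.18, 0.10, -0.02, -0.09 and 0.53. With 1 library left out, the medians of these lists stayed between -0.26 and 0.34, except that of the mitochondrially encoded genes, which was 0.28 without double-mutant replicate 3 and at most 0.68.

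Markers of several other cell types were high in double-mutant replicates 3 and 5. Markers of endothelial cells summed to 1025, 816, 446 and 912 CPM in WT and 852, 1039, 4672 and 8335 CPM in double mutants, with 0 of 12 called by edgeR, 9 by DESeq2 and 10 (83.3%) higher at an unadjusted p below 0.05. The endothelial genes Itm2a and Ly6c1 had differences of 2.57 and 2.28 (adjusted p = 0.255 and 0.225). The sum was above the WT range by several-fold in double-mutant replicates 3 and 5, and replicates 1 and 2 were at or just above the WT range. The choroid plexus transcript Ttr was at 2967, 1164, 271 and 3939.8 CPM in WT and 5306, 7062, 23279.7 and 11014 CPM in double mutants (2.48, adjusted p = 0.225), and 6 of 11 markers of that tissue were higher at an unadjusted p below 0.05 (DESeq2 called 3). The pericyte gene Vtn had a difference of 2.01 (adjusted p = 0.197), with 5 of 12 mural markers higher at an unadjusted p below 0.05 (DESeq2 called 4).

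For the remaining cell types edgeR called 0 markers, and 4 of 12 neuronal, 1 of 12 astrocyte, 0 of 12 OPC, 2 of 8 ependymal and 0 of 7 erythroid markers were higher at an unadjusted p below 0.05, and 2 of 11 markers of premyelinating oligodendrocytes were lower. DESeq2 called 1 neuronal and 1 ependymal marker among them. Astrocyte markers summed to 6054 to 14440.1 CPM in WT and 4269 to 12113 CPM in double mutants. The part of these cells and libraries in the differences above was not tested.

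Of the genes on none of the lists, those near the threshold included the integrin Itgax (0.00475 CPM in WT and 5.42 CPM in double mutants, adjusted p = 0.0508), the interferon-induced Parp9 (2.80, adjusted p = 0.0508), the microtubule gene Map1b (1.76, adjusted p = 0.0596) and Dct (3.46, adjusted p = 0.0618). On the lower side, they included the growth factor Fgf7, at 3.41, 3.03, 3.64 and 2.89 CPM in WT and 0.0214, 0, 0.0195 and 0 CPM in double mutants (adjusted p = 0.064), and Nap1l5 (-1.71, adjusted p = 0.0736), Arrdc3 (-2.25, adjusted p = 0.0736) and Nmral1 (-2.27, adjusted p = 0.0736). Lpar1, a lysophosphatidic acid receptor of oligodendrocytes, was at 299, 276, 491 and 255 CPM in WT and 93.7, 94.2, 30.4 and 23.9 CPM in double mutants, with no overlap (-2.46, adjusted p = 0.0874).

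The values of Cnp-Cre Jab1fl/fl samples are set beside these, with the reminder that both comparisons share the 4 WT samples. Against WT, 28 of the 31 higher genes and 2 of the 3 lower genes were also called in Cnp-Cre Jab1fl/fl, where 919 genes (5.19%) were higher and 435 (2.46%) lower. Trib3 was at 3.14, 40.6, 14.6 and 12.6 CPM there, Chac1 at 6.38, 11.8, 0.591 and 24.3, and Asns at 40.6, 76.4, 24.1 and 24.04. For these 3 genes the 4 Cnp-Cre Jab1fl/fl samples spanned wider ranges than the double mutants, whereas Atf3, at 89.2, 181, 96.0 and 129 CPM, spanned a narrower one.

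Tested directly, double mutants and Cnp-Cre Jab1fl/fl samples differed in 0 of 17716 genes at an adjusted p below 0.05 (edgeR), with 310 higher (1.75%) and 575 lower (3.25%) at an unadjusted p below 0.05. DESeq2, which called many more genes than edgeR against WT, was not run on this comparison. Of the 34 called genes, 6 had an unadjusted p below 0.05 in that comparison. Arhgap45 (-2.85, adjusted p = 0.248), Pou2f2 (-2.50, adjusted p = 0.44), Cyth4 (-2.18, adjusted p = 0.751) and Adap2 (-1.80, adjusted p = 0.845) were below Cnp-Cre Jab1fl/fl. Arhgap45 was at 198, 156, 418 and 166 CPM and Pou2f2 at 217, 106, 241 and 211 CPM in Cnp-Cre Jab1fl/fl samples, above all double mutants, while Ccl4 (50.3, 16.2, 51.6 and 64.0 CPM) and Cd74 (16.4, 4.72, 2.22 and 18.8 CPM) overlapped them. The sum of microglia markers in double-mutant replicate 3 (22893 CPM) was above that of every Cnp-Cre Jab1fl/fl sample (1355 to 3412 CPM). In that replicate, Cd74, Clec7a, Cd33, Ccl4, Ccl2 and Lgals3 were also above every such sample. Arhgap45, Pou2f2, Cyth4 (118 against at least 142 CPM) and Adap2 (48.2 against at least 66.6 CPM) were below every such sample. This departure from the microglia markers was not tested. Pon1 had 0 counts in all 4 Cnp-Cre Jab1fl/fl samples, and Hmga1b was at 0.166, 0.225, 0.473 and 0.135 CPM (4.60, adjusted p = 0.454), so that both were above these samples in every double mutant.

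The medians of the lists in the same 2 comparisons with WT were 1.64 in double mutants and 2.24 in Cnp-Cre Jab1fl/fl for ATF4 targets, 2.92 and 2.99 for interferon-stimulated genes, and 2.59 and 2.60 for MHC class I. They were 2.20 and 2.77 for the secretory genes and 0.67 and 0.74 for p53 targets. For myelin genes they were -1.22 and -2.11, and the median of the direct difference of double mutants from Cnp-Cre Jab1fl/fl was 0.79, with 0 of 25 called. For Opalin and Adamtsl1 the direct differences were 1.58 (adjusted p = 0.968) and 2.89 (adjusted p = 0.975). A p that misses the threshold does not show that the 2 genotypes are alike.

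The number of calls rested on single libraries. When 1 WT sample was left out, 2 to 3 genes were higher and 0 lower, and without double-mutant replicate 2, 3 or 5 there were 1, 7 and 8 higher and 0 lower. Without double-mutant replicate 1, by contrast, 202 were higher and 72 lower. All 34 genes kept their direction in every one of these fits. Without replicate 3 the 7 called genes were Trib3, Asns, Pycr1, Gm4951, Gadd45b, Mgp and Col6a2, and the myeloid or lymphoid genes were called in 1 of the 8 fits, the one without double-mutant replicate 1.

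**Figure D5:**
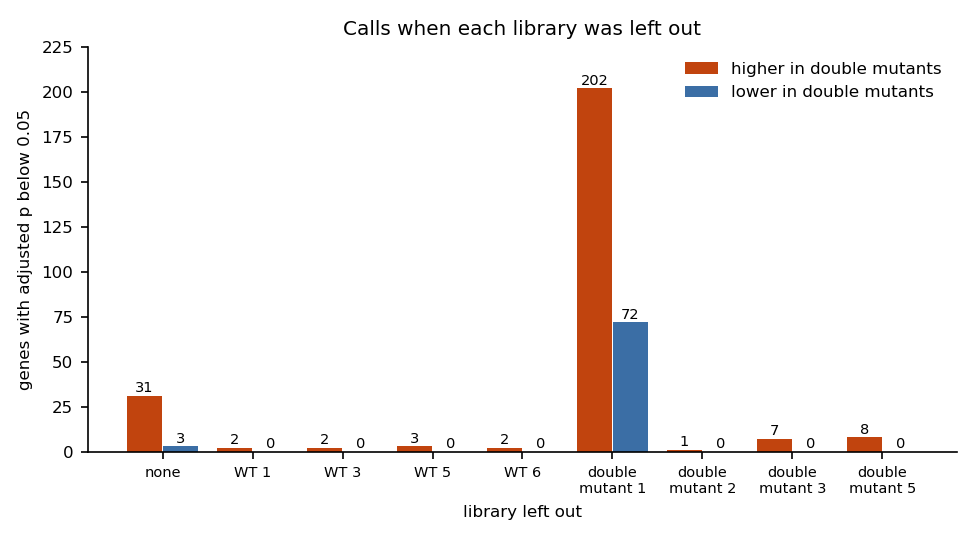
Number of genes with an edgeR adjusted p below 0.05 in double mutants against WT, higher (orange) and lower (blue), with all 8 libraries and with each left out in turn. The count is 31 higher and 3 lower with all libraries, 202 and 72 without double-mutant replicate 1, and at most 8 and 0 without any of the other 7.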

How the data were processed

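O1+ CD45- CD11b- cells were sorted from the brains of 3 genotypes, with 4 samples of 2 brains for each. The authors prepared SMART-Seq v4 libraries, sequenced them paired-end, removed adapters with Trimmomatic 0.32, mapped to the GRCm38 build by STAR 2.5.3a and made counts per gene with featureCounts on GENCODE basic M22. These deposited counts were not normalized. Strandedness and the handling of multiply mapped reads are not given in the sources used here, so a gene and a partner on the other strand cannot be told apart.

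Groups were taken from the labels, and samples of a group were treated as separate pools of animals. Genes that reached 1 CPM in 4 or more of the 12 samples (17716 of 55376) were tested with edgeR 4.0.16 (quasi-likelihood, trimmed mean of M values, R 4.3.3) on the 8 samples compared, with Benjamini-Hochberg adjustment over all of them. The filter used CPM of total counts. The CPM printed were computed from the counts of tested genes, with libraries scaled by the trimmed mean of M values over all 12 samples. List levels are mean log2(CPM + 1), a pseudocount of 1. A floor of 3 counts per library served for folds against groups at 0, and exact 95% intervals cover counting error only, since the libraries carry no molecular identifiers. Alternatives were DESeq2 1.42.0, limma-voom 3.58.1, other normalizations and filters, all 12 samples, a replicate block and each library left out. On simulated data, DESeq2 made a larger share of false calls than edgeR, and edgeR missed more of the changed genes. The simulated counts were drawn for each gene independently, from the spread that edgeR estimated. They held no shift shared by the genes of 1 library, so they cannot rank the tools on these data. Cnp-Cre Jab1fl/fl was compared in the same way with the same WT samples and with double mutants, by edgeR only.

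Named genes were the targeted genes, all called genes, up to 4 members of each pathway list by smallest p, up to 2 of each marker list by highest mean CPM, and the 10 nearest to the threshold per direction outside the lists. Some of these are not reported here. Those shown without meeting this rule were Atf4, Ddit3, Nupr1, Ppp1r15a, Ptprc and Itgam. The members and lists were chosen with earlier results of these data known. Positions come from GENCODE M21 on GRCm38, matched by symbol (54402 symbols matched to 1 gene). Promoter sequences come from RefSeq, and none was matched for Mgp, Eif4ebp1, Adamtsl1, Npb, Ccl4, Ifi204, Kctd4, Ccl2, Cd74, Gm4951 and F830016B08Rik.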

Additional observations from a re-analysis of the deposited data

Results flagged for a closer look

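Within groups of 4, the highest or lowest sample of 109 genes was compared with the other 3, and 14 of 218 groups held a sample whose gap to the nearest other exceeded the limit of Dixon's test at the 95% level. For normally distributed values, chance alone would mark about 1 group in 20, but CPM near 0 are not so distributed. A group with reads in only 1 library is marked whatever its level, so the count of marked groups cannot be set against that rate. In WT, Chac1 was at 0.109 CPM in replicate 6, F830016B08Rik at 0.0109 CPM in replicate 6, Cd74 at 0.0545 CPM in replicate 1, Ccl4 at 0.0389 CPM in replicate 3, Pon1 at 0.00992 CPM in replicate 5 and Cxcl10 at 0.415 CPM in replicate 3, each with 0 in the other 3 WT libraries. Hmga1b was at 0.188 CPM in WT replicate 5 and at most 0.0652 CPM in the others. Slc38a1 was lowest in WT replicate 5, at 13.01 CPM against 20.3 to 22.2 CPM. Cers2 was highest in WT replicate 5, at 2009.7 CPM against 899 to 954 CPM. Map1b was lowest in WT replicate 3, at 96.8 CPM against 132 to 133 CPM.

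In double mutants, Pou2f2 was highest in replicate 5, at 73.0 CPM against 19.1 to 23.6 CPM. Opalin was highest in replicate 1, at 408 CPM against 88.3 to 106 CPM. Abca8b was lowest in replicate 5, at 0.210 CPM against 2.05 to 2.61 CPM. B230217J21Rik was at 0.0210 CPM in replicate 5 and at 0 in the other 3. Abca8b and B230217J21Rik were among the 10 genes below WT nearest to the threshold.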

How the results depend on the processing

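All 34 called genes kept their direction in every alternative in which they were tested, whereas their number did not hold. DESeq2 called 663 higher and 199 lower genes on the 8 samples and 761 and 162 on all 12, with 33 of the 34 among them each time. Fitting all 12 samples with edgeR gave 157 and 7, no filter 20 and 1, and a mean of at least 10 CPM 105 and 15. Limma-voom gave 38 and 9, with 19 of the 34 shared. Upper-quartile or relative log normalization, a filter within the 8 samples, a robust prior and a minimum log2 change of 1 gave 29 to 38 higher and 3 to 4 lower.

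With 1 library left out, the counts ranged from 1 to 202 higher and from 0 to 72 lower, and the cause of this range was not tested. The replicate block gave 1 higher gene, Ccl4, and 0 lower. The replicate numbers did not pair the samples, since the correlation of deviations from the group means was -0.07, -0.01 and -0.13 for replicates 1, 3 and 5. Trib3 was called in 18 of 19 alternatives and missed the threshold under the block, at an adjusted p of 0.212. As 1 CPM stood for at least 90.8 counts, depth limited mainly the folds of genes with 0 to 10 counts in all WT libraries.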
